A study of Rattus norvegicus with 29 samples.

Results

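Transcripts of DNA replication and mitosis were measured in the livers of 29 rats that had received PMCol (2,2,5,7,8-pentamethyl-6-chromanol) or vehicle. PMCol has the ring system of vitamin E and lacks the long side chain. A set of 34 genes was named by function: the MCM helicase and its loaders, enzymes of nucleotide supply, S phase and mitotic cyclins, mitotic kinases and checkpoint proteins, and spindle and cytokinesis proteins. Members were the transcript clusters of the array with 1 gene symbol that was one of these names. They came to 31 of the 27342 clusters and to 29 of the 34 genes, with 2 clusters each for Rrm2 and Ccnb2. For Mcm3, Mcm4, Cenpf, Birc5 and the proliferation marker Mki67 no cluster carried that name alone, and these 5 genes were not analysed here.

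The animals were male Crl:CD Sprague-Dawley rats, 6 to 7 weeks old, and all of them, controls included, were gavaged once a day with 1% methylcellulose in water, with or without PMCol. After 7 daily doses, livers were taken on day 8 from 6 vehicle rats and from 6 rats on 2000 mg/kg. After 28 daily doses, livers were taken on day 29 from 6 vehicle rats, 6 rats on 200 mg/kg and 5 rats on 2000 mg/kg. The day 8 animals on 200 mg/kg were not analysed here. Each liver (left lobe) gave 1 Affymetrix whole-transcript array. Each value is a log2 signal less the median of its cluster over the 29 livers. It places an animal against the others and does not give how abundant a transcript is. Only the rounding of the values bears on the stored level, as given below.

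In the adult liver nearly all hepatocytes rest outside the cell cycle, but they can enter it after loss of tissue or under mitogenic compounds. Before S phase, CDC6 and CDT1 load the MCM2-7 helicase on replication origins, and cyclin E with its kinase starts synthesis. Ribonucleotide reductase and thymidylate synthase then supply deoxynucleotides, and PCNA clamps the polymerases to the template. Cyclin A and cyclin B with CDK1 drive entry into mitosis, where the Aurora and Polo-like kinases, the checkpoint kinases and the APC/C activator CDC20 control chromosome separation. Transcription of the S phase genes depends largely on E2F factors, and that of many mitotic genes on the CHR element and CCAAT boxes of their promoters.

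The promoters below belong to the members whose transcripts passed the test in at least 1 comparison, as far as the promoter table held them. They are RefSeq sequences of the rat assembly GRCr8, from 250 bases before to 50 bases after the start of transcription, written 5′ to 3′ on the strand of the gene. Capitals mark the CHR, whose letters are TTTGAA, the box of the letters CCAAT, and an E2F motif. The E2F motif was searched as TTCCCGC in its first form, as TTCGCGC in its second form and as TTGGCGC in its last form. All were searched on both strands, so that a match on the opposite strand appears as the reverse complement of these letters. Tyms lies at chr9:120776034-120776333 (minus strand), Mcm2 at chr4:122918045-122918344 (minus strand), Mcm5 at chr19:13488563-13488862 (plus strand), Top2a at chr10:84473044-84473343 (minus strand) and Ccne1 at chr1:99927860-99928159 (minus strand).
Tyms: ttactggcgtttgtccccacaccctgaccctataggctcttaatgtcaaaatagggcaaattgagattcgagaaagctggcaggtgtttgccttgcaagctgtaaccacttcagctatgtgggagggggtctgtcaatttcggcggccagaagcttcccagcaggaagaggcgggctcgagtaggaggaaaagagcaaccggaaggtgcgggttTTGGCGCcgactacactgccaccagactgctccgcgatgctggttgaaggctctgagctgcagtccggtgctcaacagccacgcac
Mcm2: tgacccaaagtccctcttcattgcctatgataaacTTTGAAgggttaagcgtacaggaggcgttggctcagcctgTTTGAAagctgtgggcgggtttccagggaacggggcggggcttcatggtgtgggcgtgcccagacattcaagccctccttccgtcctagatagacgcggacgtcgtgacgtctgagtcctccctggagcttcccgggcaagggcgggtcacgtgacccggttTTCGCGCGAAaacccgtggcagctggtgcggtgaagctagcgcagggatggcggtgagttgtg
Mcm5: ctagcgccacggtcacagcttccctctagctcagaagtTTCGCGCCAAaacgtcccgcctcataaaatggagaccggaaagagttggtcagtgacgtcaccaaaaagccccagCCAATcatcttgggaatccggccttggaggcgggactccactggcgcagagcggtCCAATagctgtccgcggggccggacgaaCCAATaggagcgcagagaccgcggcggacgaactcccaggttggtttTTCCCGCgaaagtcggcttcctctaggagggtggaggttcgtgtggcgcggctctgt
Top2a: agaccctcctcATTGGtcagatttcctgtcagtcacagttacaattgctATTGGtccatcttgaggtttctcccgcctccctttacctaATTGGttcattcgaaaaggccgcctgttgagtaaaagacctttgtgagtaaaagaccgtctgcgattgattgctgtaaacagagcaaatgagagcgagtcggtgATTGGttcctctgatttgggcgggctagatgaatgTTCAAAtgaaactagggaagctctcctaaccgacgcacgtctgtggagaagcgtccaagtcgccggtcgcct
Ccne1: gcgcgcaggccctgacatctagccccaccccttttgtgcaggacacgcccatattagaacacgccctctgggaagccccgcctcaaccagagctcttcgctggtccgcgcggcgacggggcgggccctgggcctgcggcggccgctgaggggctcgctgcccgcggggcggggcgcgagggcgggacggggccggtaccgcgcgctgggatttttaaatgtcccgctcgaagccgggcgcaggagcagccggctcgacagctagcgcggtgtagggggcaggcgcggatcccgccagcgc

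The sequences differ in what they carry. Tyms holds 1 E2F match, 36 bases before the start, Mcm5 holds 3 CCAAT boxes and 3 E2F matches, and Mcm2 holds 2 CHR and 2 E2F matches. A pair of the E2F matches in Mcm2, and a pair in Mcm5, overlap on opposite strands and so form 1 stretch each. Top2a holds 1 CHR and 4 CCAAT boxes, and none of these letters occurs in the window of Ccne1. Of the 34 genes, 28 had a promoter in the table, 24 of them measured, and it lacked Rrm2, Ccna2, Ccne2, Cdc6, Aurkb and Mcm4. The CHR letters occurred in 13 of the 28 promoters (46.4%) against 18.3% of all 33469 promoters of the same length. CCAAT occurred in 20 (71.4%) against 37.5%, and the E2F letters in 10 (35.7%) against 7.52%. A match describes the letters and shows no binding.

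Most member values lay near the median of their cluster, and the matching share over all clusters was not taken. Of the 899 member values, 837 (93.1%) lay within 0.25 of the cluster's own median on the log2 scale, and 4 lay beyond 0.5. Those 4 were Tyms in vehicle day 29 replicate 6 (-0.56) and in 2000 mg/kg day 8 replicates 4 (0.66) and 6 (0.51), and Top2a in vehicle day 8 replicate 1 (0.55). The residual SD of the model ran from 0.0555 for Melk, a mitotic kinase, to 0.193 for Tyms, with a median of 0.104 over the 31 clusters. The mean of the members was 0.04 ± 0.03 (SD, n = 6) in vehicle rats and 0.03 ± 0.03 (SD, n = 6) after 2000 mg/kg at day 8. At day 29 it was -0.01 ± 0.04 (SD, n = 6) in vehicle rats, -0.03 ± 0.03 (SD, n = 6) at 200 mg/kg and -0.001 ± 0.026 (SD, n = 5) at 2000 mg/kg. No group stood out as a block in the plot of all member values.

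**Figure D1:**
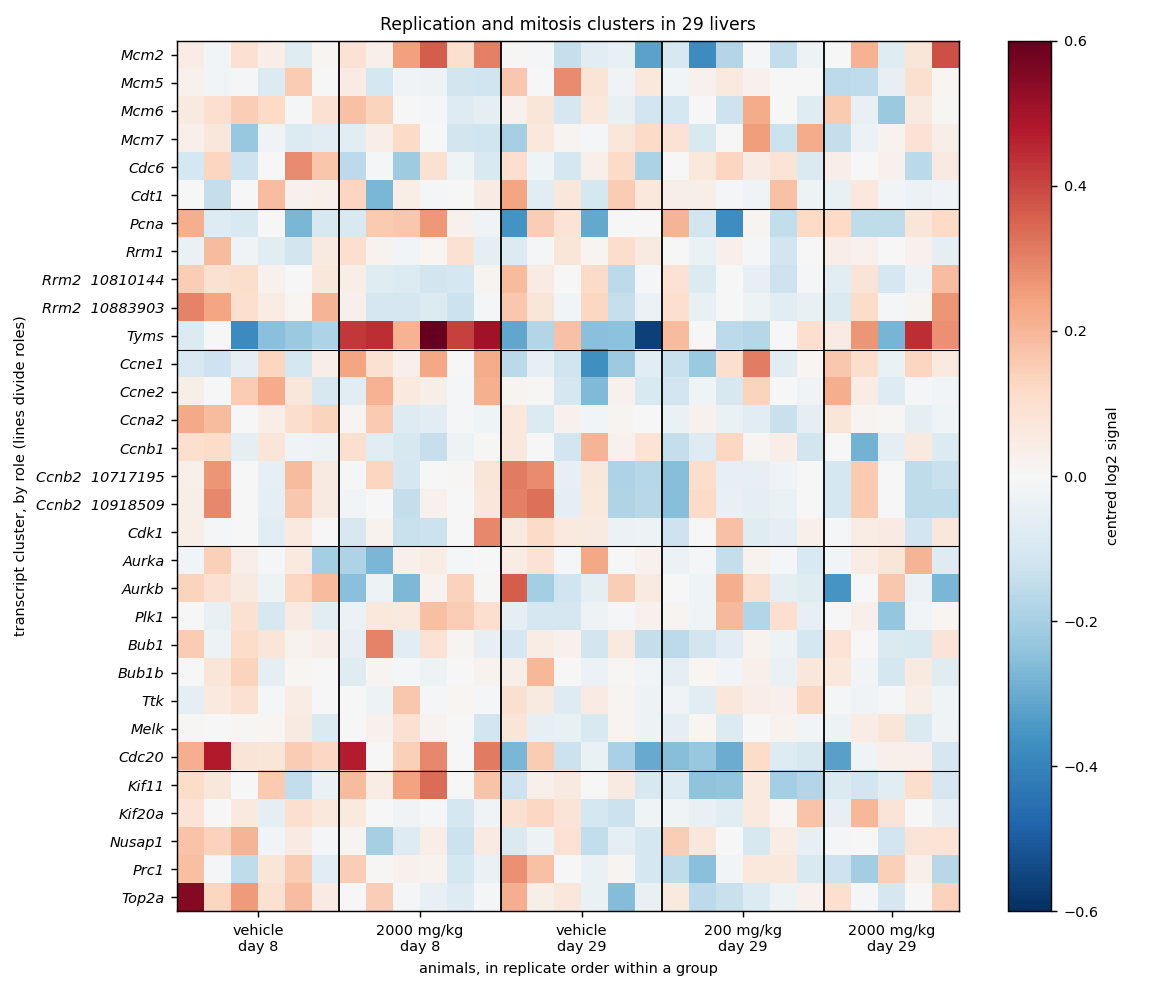
Centred log2 signal of the 31 member clusters (rows, grouped by role) in the 29 livers (columns, grouped by treatment and day), with red above and blue below the cluster's median over all animals. Tyms is red in all 6 livers after 2000 mg/kg at day 8, with values from 0.21 to 0.66, while most other cells are pale, 93.1% of the values lying within 0.25 of 0.

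Of the 31 clusters only that of Pcna fitted stored log values of 8 or more in all 29 animals, by the rounding of the deposited numbers, as against 7783 of the 27342 clusters. All 8 measured hepatocyte markers fitted that bound. An offset before the log, if one was used, would shrink differences where signal was low. Array medians ran from -0.023 to 0.029, the highest correlation between any pair of arrays was 0.725, and the number of arrays limits the precision. In whole liver, fewer dividing cells and less RNA per cell cannot be told apart. Arrays within a group are biological replicates, per the labels.

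The comparisons asked what 2000 mg/kg did at each day and 200 mg/kg at day 29, and how these doses differed at day 29. They also asked whether the effect of 2000 mg/kg changed between days, and how vehicle rats of the later day differed from those of the earlier one. A cluster rose or fell where its Benjamini-Hochberg adjusted p over the 27342 clusters was under 0.05 in a two-sided limma test. After 2000 mg/kg at day 8, 1 member rose and 2 fell, 9.68% of the member clusters, while 18.6% of all clusters were called (9.32% rose and 9.32% fell). The share was 23.5% among clusters with 1 symbol and 14.1% among those of them with stored values under 8 in some animal. After 2000 mg/kg at day 29, 3 members rose and 1 fell, 12.9%, while 21.6% of all clusters were called (12.1% rose and 9.55% fell), with 26.1% and 16.3% for the same subsets. In the main fit the share of members called was below each of these backgrounds in both comparisons. No difference from them was tested, and the day 8 count ran from 2 to 5 members when single animals were left out.

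The comparison of 200 mg/kg with vehicle at day 29 called 0 members in limma, against 2.78% of all clusters, and 3 members had an unadjusted p under 0.05. Between 2000 and 200 mg/kg at day 29, 1 member rose, 3.23%, against 9.89% of all clusters (6.05% rose). The change of the 2000 mg/kg effect between days called 0 members in limma, against 0.775% of all clusters, with 3 under an unadjusted p of 0.05. Vehicle rats of day 29 against those of day 8 also gave 0 calls in limma, against 2.73% of all clusters, with 6 under an unadjusted p of 0.05. The median log2 difference over the members was -0.03 at day 8 and 0.001 at day 29 for 2000 mg/kg, and -0.03 for 200 mg/kg. Over all clusters these medians were -0.005, 0.002 and 0.003. The median size of the difference, sign ignored, was 0.0676 for members and 0.0752 for all clusters at day 8, and 0.038 and 0.086 at day 29. The groups did not overlap for 1 member at day 8 (Tyms) and 1 at day 29 (Ccne1) after 2000 mg/kg, 1 cluster in 31 each time, as against 11% and 11.4% of all clusters. They overlapped for every member at 200 mg/kg, between the doses and between the vehicle groups, where 1.51%, 6.12% and 1.25% of all clusters did not overlap.

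**Figure D2:**
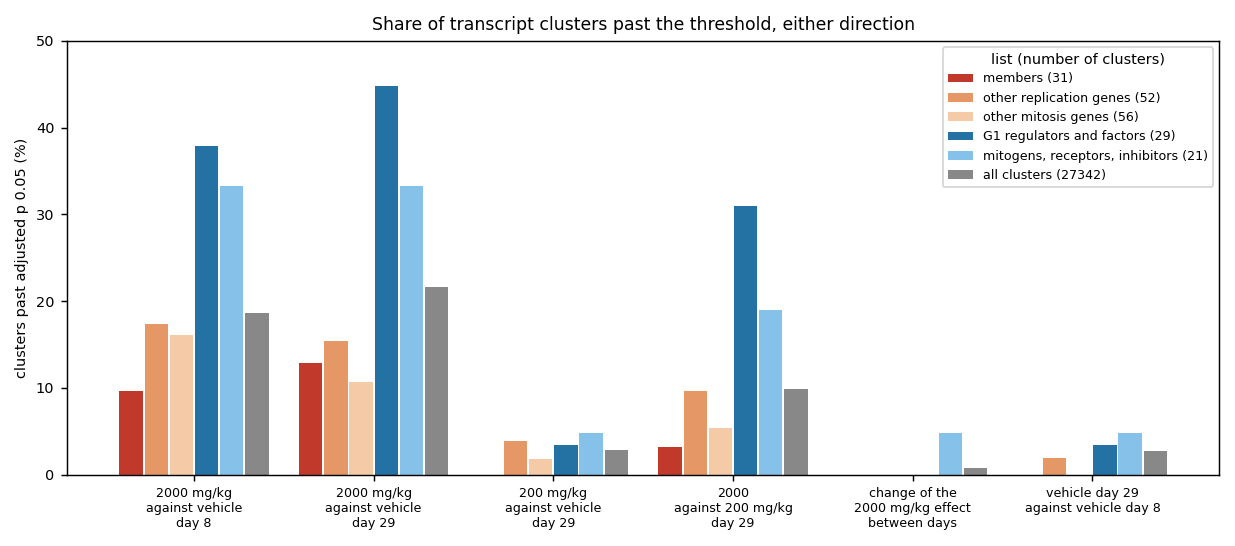
Share of transcript clusters (%, vertical axis from 0) past an adjusted p of 0.05 in either direction, for the members, 4 lists of related genes and all 27342 clusters, in each of the 6 comparisons (horizontal axis). The members stand at 9.68% and 12.9% in the 2000 mg/kg comparisons with vehicle, lower than the grey bars for all clusters at 18.6% and 21.6%, and the G1 regulators stand highest at 37.9% and 44.8%.

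Nucleotide supply held the member that moved most. Tyms encodes thymidylate synthase, which makes the thymidine nucleotide for DNA. Its centred log2 values ran from -0.38 over a median of -0.20 to 0.0044 in the day 8 vehicle rats and from 0.21 over 0.43 to 0.66 in the day 8 rats on 2000 mg/kg. Every treated animal was above every vehicle animal. Tyms rose by 0.63 ± 0.11 (SE; 95% interval 0.41 to 0.85; limma adjusted p = 6.55e-05), a 1.55-fold rise, and it kept the call on leaving out any 1 of the 12 animals (0.58 to 0.68).

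At day 29 the picture for Tyms was less even. Vehicle rats ran from -0.56 over a median of -0.25 to 0.18, and rats on 200 mg/kg from -0.17 over -0.0016 to 0.19. The 5 rats on 2000 mg/kg had values of 0.05, 0.26, -0.28, 0.44 and 0.27. One treated animal lay below the vehicle median, and the groups overlapped. Tyms rose by 0.38 ± 0.11 (SE; limma adjusted p = 0.0138), and without 2000 mg/kg replicate 4 the difference was 0.31 with an adjusted p of 0.0615. Fitted on the compared groups alone, its adjusted p was 0.08. At 200 mg/kg the difference was 0.22 ± 0.11 (SE; adjusted p = 0.352), and the change of the 2000 mg/kg effect between days was -0.25 ± 0.15 (SE; adjusted p = 0.469).

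The ribonucleotide reductase subunits did not follow Tyms. Rrm2 encodes the small subunit, which is made in S phase, and was read by a pair of clusters. In cluster 10883903 the day 8 vehicle rats ran from 0.01 over a median of 0.15 to 0.30 and the 2000 mg/kg rats from -0.13 over -0.09 to 0.03, so that treated animals lay low and the ranges overlapped at 0.01 to 0.03. This cluster fell by 0.21 ± 0.06 (SE; limma adjusted p = 0.00859) and kept the call without any 1 animal. In cluster 10810144 the difference was -0.13 ± 0.05 (SE; adjusted p = 0.0864), in the same direction and short of the threshold. The clusters of Rrm2 lay at most 0.149 apart in an animal, with a median distance of 0.0232. They are not independent readings. At day 29 the differences for 2000 mg/kg were 0.03 ± 0.06 and -0.02 ± 0.05 (SE; adjusted p of 0.792 and 0.873). Rrm1, the large subunit, gave 0.02 at day 8 and -0.02 at day 29 (adjusted p of 0.804 and 0.821).

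Pcna, the sliding clamp and the member with stored values of 8 or more, ran from -0.27 over a median of -0.08 to 0.22 in day 8 vehicle rats and from -0.09 over 0.09 to 0.26 after 2000 mg/kg. These ranges overlapped widely. The difference was 0.13 ± 0.10 (SE; adjusted p = 0.394) at day 8, 0.07 ± 0.10 (SE; adjusted p = 0.674) at day 29 and 0.02 ± 0.10 (SE; adjusted p = 0.966) at 200 mg/kg. The last value changed sign under other settings. The interval at day 8, -0.06 to 0.33, reached higher than that of any other member short of the threshold in that comparison.

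In the helicase group, 1 of 6 clusters rose and 1 fell at day 29 after 2000 mg/kg, while 21.6% of all clusters were called. At day 8, 0 passed the limma threshold, with 1 at an unadjusted p under 0.05, against 18.6% of all clusters called. Mcm2, a subunit of the MCM2-7 ring, ran from -0.32 over a median of -0.06 to 0.01 in day 29 vehicle rats and from -0.38 over -0.12 to -0.01 at 200 mg/kg. The 5 rats on 2000 mg/kg had values of 0.00, 0.21, -0.07, 0.07 and 0.39, of which 3 were above every vehicle rat. Mcm2 rose by 0.22 ± 0.08 (SE; limma adjusted p = 0.0423) against vehicle and by 0.26 ± 0.08 (SE; adjusted p = 0.0285) against 200 mg/kg. At day 8 its range went from -0.07 to 0.09 in vehicle rats and from 0.03 to 0.36 after 2000 mg/kg, a difference of 0.17 ± 0.07 (SE; adjusted p = 0.11). The call against vehicle was lost without vehicle replicate 3, 4 or 6 or 2000 mg/kg replicate 2, 4 or 5, each left out alone (adjusted p from 0.0545 to 0.186; differences from 0.15 to 0.23). The call between doses ended on leaving out 200 mg/kg replicate 2 or 3 or 2000 mg/kg replicate 2 or 5 (adjusted p from 0.054 to 0.132; differences from 0.19 to 0.25). With the replicate number as a block the call against vehicle was also lost (adjusted p = 0.0619), as it was after quantile normalization (0.105) and on the compared groups alone (0.109). On those groups alone the call between doses was lost too (0.0943).

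Mcm5, another subunit of the same ring, had its difference in the opposite direction. Vehicle rats of day 29 ran from -0.02 over a median of 0.07 to 0.29, and the 2000 mg/kg rats had -0.16, -0.15, -0.05, 0.10 and 0.01. Of the treated rats 3 lay below every vehicle rat and the others within the vehicle range. Mcm5 fell by 0.14 ± 0.05 (SE; limma adjusted p = 0.0465). The call was lost without vehicle replicate 1, 3, 4 or 6 or 2000 mg/kg replicate 1, 2 or 3 (adjusted p from 0.0549 to 0.14; differences from -0.15 to -0.11), and under quantile normalization (0.0597), array quality weights (0.0649) and a fit of the compared groups alone (0.17). At day 8 the difference was -0.07 ± 0.05 (SE; adjusted p = 0.397). The other helicase members, Mcm6 and Mcm7 of the ring and the loaders Cdc6 and Cdt1, had differences between -0.13 and 0.02 at day 8 and between -0.07 and 0.01 at day 29 after 2000 mg/kg.

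Among the cyclins was Ccne1, which encodes the cyclin E1 that starts S phase. Ccne1 was the only member whose 2000 mg/kg and vehicle groups did not overlap at day 29. Vehicle rats ran from -0.37 over a median of -0.14 to -0.05, and the 5 rats on 2000 mg/kg had 0.16, 0.11, -0.04, 0.13 and 0.06. Each treated animal was above each vehicle animal, the closest being at -0.04 and -0.05. Rats on 200 mg/kg ran from -0.22 over -0.03 to 0.31 and overlapped both. Ccne1 rose by 0.25 ± 0.07 (SE; limma adjusted p = 0.016), with adjusted p at most 0.0489 on leaving out any 1 animal, and the call was lost after quantile normalization (0.0613). At 200 mg/kg the difference was 0.16 ± 0.07 (SE; adjusted p = 0.276). At day 8 vehicle rats ran from -0.12 to 0.13 and 2000 mg/kg rats from 0.00 to 0.24. The difference there was 0.17 ± 0.07 (SE; limma adjusted p = 0.0989). All 6 vehicle rats of day 29 lay below the mean of the day 8 vehicle rats. The values after 2000 mg/kg at day 29 overlapped the day 8 vehicle range.

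The other 6 clusters of this group did not pass the threshold in any comparison. Of all clusters 18.6% were called at day 8 and 21.6% at day 29 after 2000 mg/kg. Ccne2, the second E-type cyclin, gave 0.01 at day 8 and 0.10 at day 29. Ccna2, the cyclin of S phase and mitotic entry, gave -0.11 at day 8 (adjusted p = 0.0526), just short of the threshold, and 0.0010 at day 29. Ccnb1 gave -0.07 and -0.12, and the clusters of Ccnb2 gave -0.06 and -0.09 at day 8 and -0.09 and -0.10 at day 29. The clusters of Ccnb2 lay at most 0.13 apart in an animal and had a median distance of 0.00625. As with Rrm2, these are not independent readings, and the counts of member clusters hold both. Cdk1, the kinase that the B cyclins activate, ran from -0.07 over 0.00 to 0.06 in day 8 vehicle rats and from -0.14 over -0.05 to 0.29 after 2000 mg/kg. Its difference was -0.01 ± 0.06 (SE; adjusted p = 0.93) at day 8, -0.03 ± 0.06 (SE; adjusted p = 0.799) at day 29 and -0.04 ± 0.06 (SE; adjusted p = 0.841) at 200 mg/kg.

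**Figure D3:**
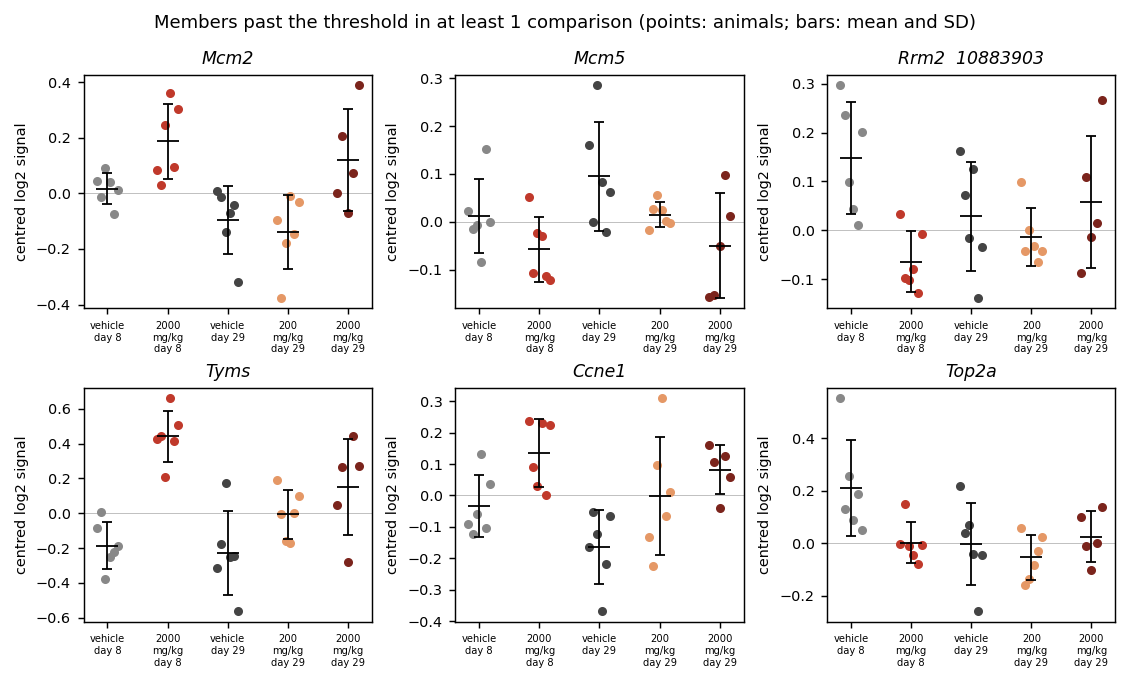
Centred log2 signal (vertical axes) of the 6 member clusters that passed the threshold in at least 1 comparison, 1 point per animal, in the 5 groups (horizontal axes), with bars for the mean and SD of a group. Tyms separates fully at day 8 (vehicle at most 0.0044, 2000 mg/kg at least 0.21) and Ccne1 at day 29 (vehicle at most -0.05, 2000 mg/kg at least -0.04), and in the other panels the compared groups overlap.

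Of the 8 mitotic kinases and checkpoint genes, 0 passed the limma threshold in any of the 6 comparisons. Cdc20 between the vehicle groups had the 1 unadjusted p under 0.05. Of all clusters 18.6% at day 8 and 21.6% at day 29 were called after 2000 mg/kg, and fewer in the other comparisons. No difference from these shares was tested for the 8 genes. After 2000 mg/kg at day 8 their differences ran from -0.16 for Aurkb, the kinase of the chromosomal passenger complex, to 0.10 for Plk1, a Polo-like kinase. At day 29 they ran from -0.13 for Aurkb to 0.05 for Cdc20. The spindle kinase Aurka and the checkpoint proteins Bub1, Bub1b and Ttk, with Melk, lay between those ends, at -0.07, -0.02, -0.04, 0.0003 and 0.0048 at day 8.

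Spindle, chromosome and cytokinesis members held 1 fall in 5 clusters at day 8, against 18.6% of all clusters called. At day 29 limma called 0, with 0 at an unadjusted p under 0.05, against 21.6% of all clusters called. Top2a, topoisomerase II alpha, untangles replicated chromosomes. In day 8 vehicle rats it ran from 0.05 over a median of 0.16 to 0.55, and after 2000 mg/kg from -0.08 over -0.01 to 0.15. One vehicle animal, replicate 1, stood at 0.55, and the highest treated animal lay within the vehicle range. Top2a fell by 0.21 ± 0.07 (SE; limma adjusted p = 0.0403). The call was lost without vehicle replicate 1, 3 or 5 or 2000 mg/kg replicate 1, 3, 4, 5 or 6 (adjusted p from 0.0542 to 0.135), and without vehicle replicate 1 the difference was -0.14. On the compared groups alone its adjusted p was 0.0614. At day 29 the vehicle rats ran from -0.26 to 0.22 and the treated rats had 0.10, -0.01, -0.10, 0.00 and 0.14, a difference of 0.03 ± 0.08 (SE; adjusted p = 0.843). The change of the effect between days, 0.24 ± 0.10 (SE), had an adjusted p of 0.281.

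The rest of that group were Kif11, the motor that pushes spindle poles apart, Kif20a and Prc1 of the midzone in cytokinesis, and the spindle protein Nusap1. Kif11 gave 0.14 at day 8 (adjusted p = 0.119) and -0.04 at day 29, and Nusap1 gave -0.14 (adjusted p = 0.0651) and 0.06. Prc1 gave -0.02 and -0.12, and Kif20a -0.06 and 0.03. At each day some of them were positive and some negative.

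A miss of the threshold does not show that a transcript was unaffected, so the intervals matter. For the 28 clusters short of it at day 8, all 95% intervals lay between -0.34 (Aurkb) and 0.33 (Pcna), and 21 of them lay within 0.25 of 0. For the 27 at day 29 they lay between -0.32 (Aurkb) and 0.28 (Pcna), 22 of them within 0.25. For the 31 at 200 mg/kg they lay between -0.27 (Prc1) and 0.44 (Tyms), 26 of them within 0.25. In these 3 comparisons no such interval reached 0.5 in either direction on the deposited scale.

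**Figure D4:**
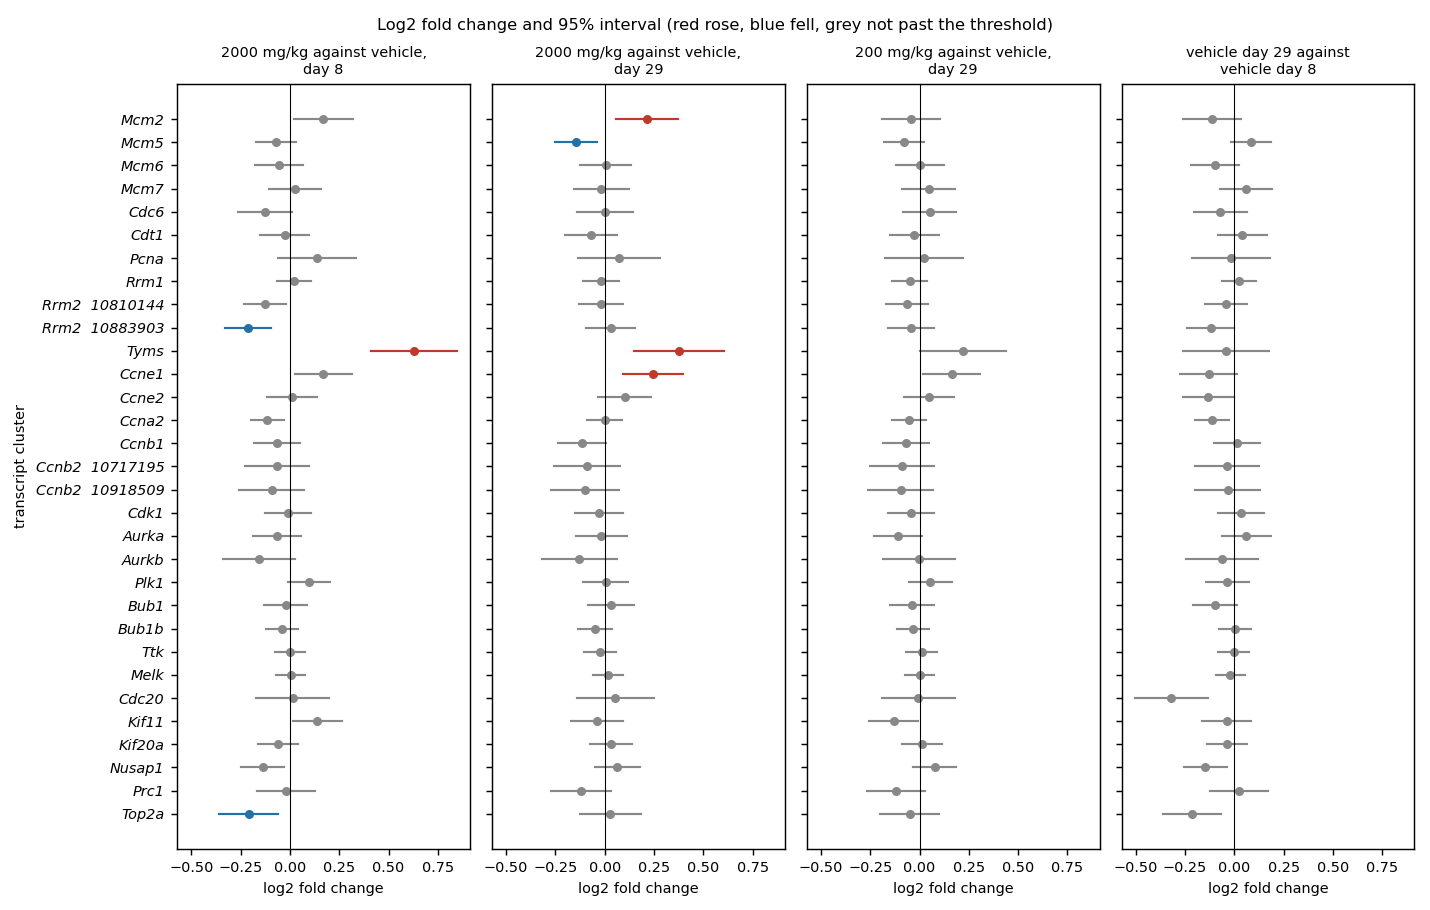
Log2 difference (horizontal axes) with its 95% interval for each of the 31 member clusters (vertical axis) in 4 comparisons, red where the cluster rose, blue where it fell and grey where it did not pass the threshold. Tyms at day 8 stands farthest right at 0.63, the grey intervals of the first 3 panels lie between -0.34 and 0.44, and Cdc20 is the grey point farthest left in the vehicle panel at -0.32.

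Vehicle rats of day 29 differed from those of day 8 most in Cdc20, the activator of the anaphase-promoting complex. Its values ran from 0.07 over a median of 0.14 to 0.48 at day 8 and from -0.30 over -0.16 to 0.15 at day 29, and the ranges overlapped. The difference was -0.32 ± 0.09 (SE; limma adjusted p = 0.052), just short of the threshold and past it when only clusters with 1 symbol were tested. Top2a gave -0.21 ± 0.07 (SE; adjusted p = 0.096), Nusap1 -0.15 (adjusted p = 0.122) and Ccna2 -0.11 (adjusted p = 0.129). For Cdc20, Nusap1, Ccna2, Ccne1, Ccne2, Mcm2, Mcm6 and Bub1, all 6 vehicle rats of day 29 lay below the day 8 vehicle mean. No member had all 6 above it. Of the 31 clusters 22 were lower and 9 higher at the later day, with a median of -0.04 against 0.003 over all clusters. The day 8 comparison of 2000 mg/kg with vehicle had 19 lower and 12 higher, and it shares its vehicle rats with this one.

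Markers of other liver cells moved alongside the day 8 results, and their counts stand against 18.6% of all clusters called at day 8, 21.6% at day 29 and 2.73% between the vehicle groups. Of 13 Kupffer cell and macrophage markers 12 fell after 2000 mg/kg at day 8, 12 were lower in vehicle rats of day 29 than in those of day 8, and 0 passed the limma threshold against vehicle at day 29 for either dose, with 0 at an unadjusted p under 0.05. Their mean per animal ran from 0.33 to 1.21 in day 8 vehicle rats, from -0.59 to 0.10 in day 8 rats on 2000 mg/kg, from -0.49 to 0.76 in day 29 vehicle rats, from -0.87 to 0.25 at 200 mg/kg and from -0.81 to 0.48 at 2000 mg/kg on day 29. Of 13 T, B and NK cell markers 5 fell at day 8 and 1 at day 29, and their means ran from 0.01 to 0.20 in day 8 vehicle rats and from -0.20 to 0.02 in treated ones. Of 9 stellate cell markers 4 fell and 1 rose at day 8, and 8 fell at day 29, with means from 0.16 to 0.73 in vehicle and from -0.55 to -0.28 in treated rats at day 29. Of the hepatocyte markers 4 of 8 fell at day 8 and 3 at day 29. All 8 had stored values of 8 or more, and of such clusters with 1 symbol 38.6% were called at day 8 and 41.8% at day 29. Of 12 erythroid clusters 2 fell and 1 rose at day 8, of 10 neutrophil and mast cell markers 1 fell, of 4 endothelial markers 2 fell and of 5 bile duct markers 1, Epcam, rose. Of these counts, those of the neutrophil and mast cell markers at day 8 (10%) and of the lymphocyte markers at day 29 (7.69%) were below the share of all clusters, and the erythroid (25%) and bile duct (20%) counts at day 8 rest on 3 clusters and 1. At day 29 the mean per animal of the 5 bile duct markers ran from -0.23 to -0.04 in vehicle rats. After 2000 mg/kg it ran from -0.0049 to 0.22, above every vehicle rat. The means of the endothelial, erythroid, and neutrophil and mast cell lists overlapped between those groups. These means were not tested. The centred values do not tell whether a marker was near background. Stored values of 8 or more were found for 5 of the 13 macrophage markers and 0 of the 13 lymphocyte markers. The part of these cells in the falls of Rrm2 and Top2a and in the rises of Tyms, Mcm2 and Ccne1 was not tested.

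The wider cell cycle was described with 4 further lists. Of 52 clusters (50 genes) for other replication proteins, 7 rose and 2 fell at day 8 after 2000 mg/kg, 17.3% against 18.6% of all clusters, and 7 rose and 1 fell at day 29, 15.4% against 21.6%. Their medians were -0.02 and 0.03. Mcm10, which helps start unwinding at origins, ran from 0.21 over 0.46 to 0.80 in day 8 vehicle rats and from -0.53 over -0.42 to -0.03 in treated ones. At day 29 vehicle rats ran from 0.32 over 0.75 to 1.14, rats on 200 mg/kg from -0.51 over -0.05 to 0.47, and those on 2000 mg/kg had -0.17, -0.35, -0.74, -0.87 and -0.87. Treated and vehicle groups did not overlap at 2000 mg/kg. Mcm10 fell by 0.86 ± 0.16 at day 8 (adjusted p = 0.000212), by 1.34 ± 0.17 at day 29 (adjusted p = 7.45e-07) and by 0.79 ± 0.16 at 200 mg/kg (adjusted p = 0.00461; SE, limma), and in a fit of the compared groups alone the last had an adjusted p of 0.0529. It moved opposite to Pold2, a subunit of polymerase delta, which rose by 0.50 ± 0.08 at day 8 and 0.39 ± 0.09 at day 29 without overlap of the groups. The origin recognition subunits Orc4 and Orc5 rose by 0.47 ± 0.10 and 0.41 ± 0.11 at day 8, and by 0.34 ± 0.10 and 0.44 ± 0.11 at day 29. Groups did not overlap for Orc5 at day 8 and for Orc4 at day 29.

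Of 56 clusters (53 genes) for other mitotic proteins, 2 rose and 7 fell at day 8, 16.1%, and 2 rose and 4 fell at day 29, 10.7%, each below the share of all clusters. Ccnf, cyclin F, which directs ubiquitination of cell cycle proteins, ran from 0.37 over 0.63 to 0.86 in day 8 vehicle rats and from -0.23 over -0.17 to 0.03 after 2000 mg/kg. The groups did not overlap. Ccnf fell by 0.74 ± 0.11 at day 8 (adjusted p = 1.38e-05), by 0.77 ± 0.12 at day 29 (adjusted p = 1.59e-05) and by 0.66 ± 0.11 at 200 mg/kg (adjusted p = 0.000875; SE, limma), the last with overlapping groups. Cdc25b, a phosphatase that activates mitotic cyclin kinases, fell by 0.85 ± 0.22 at day 8. Cenpm of the centromere fell by 0.44 ± 0.09 and Cks1b, a small subunit of cyclin kinases, rose by 0.40 ± 0.11 at day 8. Cit, the citron kinase of cytokinesis, fell by 0.34 ± 0.06 at day 8 and by 0.36 ± 0.07 at day 29, each time without overlap. The values of Cit at day 8, and of Orc4 and Egf at day 29, were added after they were seen and were not tested without single animals.

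The G1 regulators, with the E2F, RB, MYB and FOXM1 factors and their partners, made up 29 clusters (28 genes). Of these 6 rose and 5 fell at day 8 (37.9%, all clusters 18.6%), and 8 rose and 5 fell at day 29 (44.8%, all clusters 21.6%). Stored values of 8 or more were found for 11 of the 29, as against 1 of the 31 members, and among all clusters of that kind with 1 symbol 38.6% were called at day 8 and 41.8% at day 29. No difference from these shares was tested. Ccnd1 encodes cyclin D1, which links mitogen signals to entry into S phase. Its values ran from 0.21 over 0.61 to 0.94 in day 8 vehicle rats and from -1.30 over -0.91 to -0.32 after 2000 mg/kg. At day 29 they ran from 0.55 over 0.75 to 1.14 in vehicle rats and from -0.37 over -0.06 to 0.04 at 200 mg/kg, and were -0.66, -0.49, -0.41, -0.17 and 0.11 at 2000 mg/kg. No treated animal reached its vehicle group, at 2000 mg/kg on either day or at 200 mg/kg on day 29. Ccnd1 fell by 1.46 ± 0.14, by 1.12 ± 0.15 and, at 200 mg/kg, by 0.90 ± 0.14 (SE; limma adjusted p of 7.61e-09, 1.48e-06 and 0.000304).

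A pair of genes that act on the same kinases in opposite ways rose at both days. Cdc25a, a phosphatase that activates cyclin kinases, rose by 0.69 ± 0.09 at day 8 and 0.68 ± 0.10 at day 29, and Wee1, the kinase that restrains CDK1, by 0.72 ± 0.12 and 0.74 ± 0.12 (SE; limma adjusted p at most 4.16e-05). The Cdc25a values of treated and vehicle rats did not overlap at either day, and those of Wee1 did not at day 8. Tfdp2, a partner of E2F factors, fell by 0.66 ± 0.13 and 0.82 ± 0.14. These calls held on leaving out any 1 animal.

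**Figure D5:**
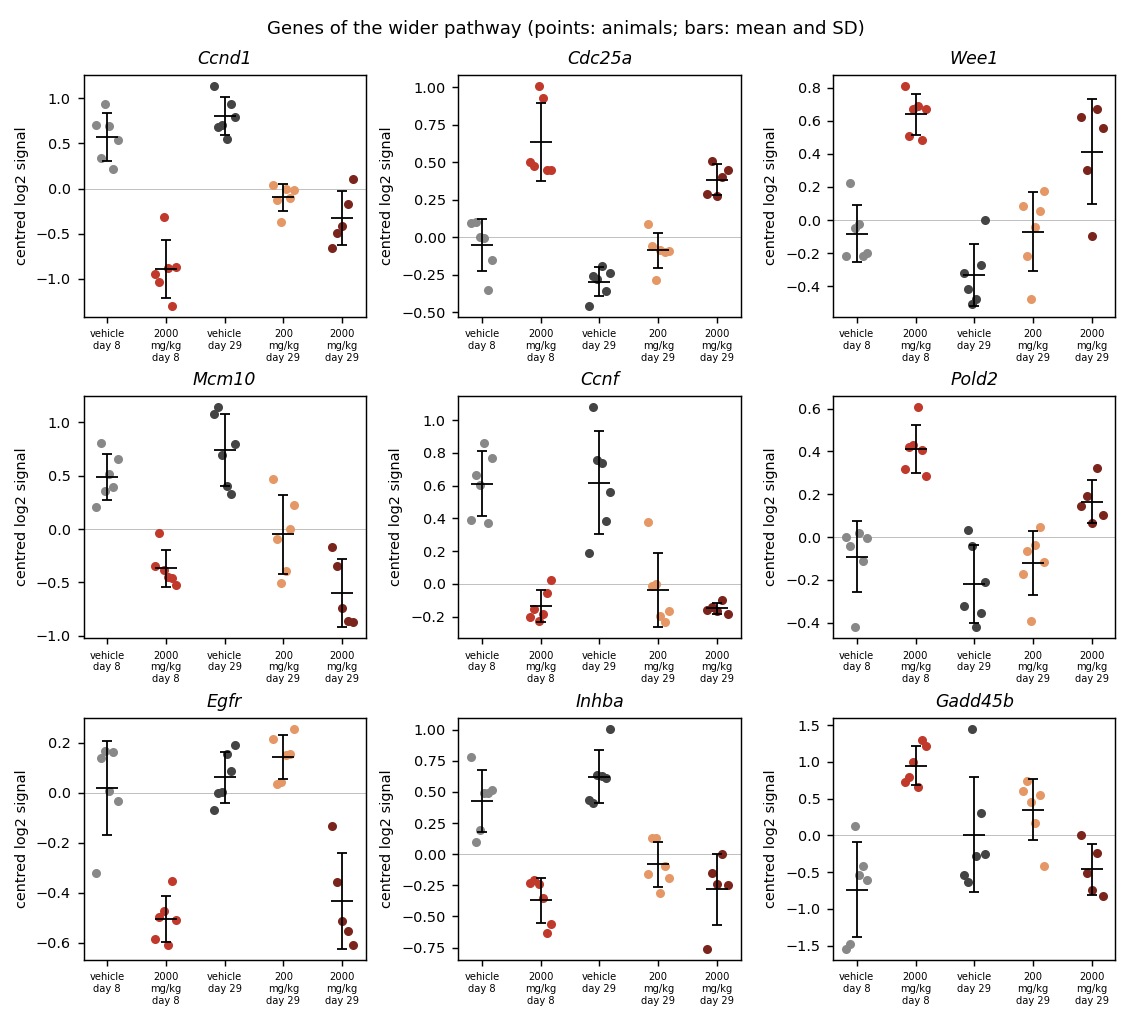
Centred log2 signal (vertical axes) of 9 genes of the wider pathway, 1 point per animal, in the 5 groups (horizontal axes), with bars for the mean and SD. The group means of Ccnd1, Mcm10, Ccnf and Inhba are lower in treated than in vehicle rats at both days and doses, with Ccnd1 at 0.55 to 1.14 in day 29 vehicle rats and at -0.37 to 0.04 at 200 mg/kg, while Gadd45b is high at day 8 only after treatment (0.66 to 1.30).

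Among 21 hepatocyte mitogens, receptors and growth inhibitors, 1 rose and 6 fell at each day after 2000 mg/kg, 33.3%, against 18.6% and 21.6% of all clusters. Stored values of 8 or more were found for 10 of the 21, a kind of which 38.6% and 41.8% were called. Egfr, the receptor for EGF and TGF-alpha, ran from -0.32 over 0.07 to 0.17 in day 8 vehicle rats and from -0.61 over -0.50 to -0.35 in treated ones. It fell by 0.53 ± 0.08 at day 8 and by 0.49 ± 0.08 at day 29, and between 200 and 2000 mg/kg it fell by 0.58 ± 0.08 (SE; limma adjusted p of 1e-05, 3.94e-05 and 1.77e-05). Its ligand Egf fell by 0.67 ± 0.10 at day 8 and by 0.48 ± 0.10 at day 29, and Hgf, a mitogen for hepatocytes, fell by 0.51 ± 0.13 at day 29. Inhba, the activin A subunit, fell by 0.80 ± 0.12, by 0.90 ± 0.13 and, at 200 mg/kg, by 0.70 ± 0.12, each time without overlap with vehicle. Inhbe, another activin subunit made in hepatocytes, rose by 0.80 ± 0.22 at day 29.

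Gadd45b, a growth arrest and stress gene, was the 1 gene of these lists whose effect differed between days by test. Its day 8 vehicle rats ran from -1.54 over -0.57 to 0.13 and its treated rats from 0.66 over 0.90 to 1.30, a rise of 1.69 ± 0.29 (SE; adjusted p = 7.93e-05). At day 29 vehicle rats ran from -0.64 over -0.27 to 1.45 and treated rats had 0.00, -0.51, -0.74, -0.24 and -0.83. The treated animals of the later day lay within or below the vehicle range. The difference there was -0.47 ± 0.30 (SE; adjusted p = 0.305), and the change between days was -2.16 ± 0.42 (SE; limma adjusted p = 0.0144, at most 0.0371 without any 1 animal).

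At 200 mg/kg 2 of 52 replication clusters fell (3.85%), 1 of 56 mitotic (1.79%), 1 of 29 G1 (3.45%) and 1 of 21 mitogen clusters (4.76%), near the 2.78% of all clusters called. Besides Mcm10, Ccnf, Ccnd1 and Inhba this was Rfc1, the large subunit of the clamp loader, which fell by 0.21 ± 0.06 (SE; limma adjusted p = 0.0345). The Rfc1 call was lost without vehicle replicate 2, 3, 4, 5 or 6 or 200 mg/kg replicate 2, 3 or 6, each alone (adjusted p from 0.0548 to 0.092). It was also lost with the replicate number as a block (0.0652) and on the compared groups alone (0.203).

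Between 2000 and 200 mg/kg, 4 replication clusters rose and 1 fell, 9.62%, close to the 9.89% of all clusters. Hells, a chromatin remodeller of replicating DNA, rose by 0.82 ± 0.14 and Tk1, thymidine kinase, by 0.33 ± 0.07 (SE; limma adjusted p of 0.000277 and 0.00263). Hells ran from -0.63 over -0.41 to -0.19 at 200 mg/kg and from 0.07 over 0.47 to 0.85 at 2000 mg/kg, so the groups did not overlap. Cdkn1a, the p21 inhibitor of cyclin kinases, fell by 0.86 ± 0.21 (adjusted p = 0.0076). Its values ran from 0.41 over 0.80 to 0.94 at 200 mg/kg and were 0.26, 0.34, -1.04, 0.33 and -0.46 at 2000 mg/kg, where 2 animals lay well below the other 3. Against vehicle it had differences of 0.61 ± 0.20 (SE; adjusted p = 0.106) at 200 and -0.25 ± 0.21 (SE; adjusted p = 0.461) at 2000 mg/kg. Cdc25a and Wee1 rose by 0.47 ± 0.10 and 0.48 ± 0.12 (adjusted p of 0.0647 for Wee1 when fitted on those groups alone). Igf1, a growth hormone target, fell by 0.26 ± 0.06. Against vehicle, 2000 mg/kg also had calls for Tk1, which rose 1.24-fold at day 8 and 1.28-fold at day 29. Dut of the replication list rose 1.16-fold and 1.23-fold, and Igf1 fell 1.41-fold and 1.36-fold. These values against vehicle, and those of Cdk4, Cdk6, E2f3, Cdkn1b and Mybl2 between doses, were added after they were seen. They were not tested without single animals.

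Other named calls did not hold in every setting. In the comparison of 2000 with 200 mg/kg, Mcm10 (-0.55) did not hold without 200 mg/kg replicate 1, 5 or 6 or 2000 mg/kg replicate 3, 4 or 5 (adjusted p from 0.0572 to 0.111), and Pold2 (0.29) without 200 mg/kg replicate 1 or 3 or 2000 mg/kg replicate 2 or 4 (0.0596 to 0.104). With all animals kept, both were lost after quantile normalization (0.082 and 0.0536), and Mcm10 on the compared groups alone (0.0893). The mitotic list of 56 clusters had 3 calls there, against 9.89% of all clusters. Of these, Cdca3 (0.28), a trigger of mitotic entry, missed the threshold without 200 mg/kg replicate 1, 2 or 4 or 2000 mg/kg replicate 2, 3 or 5 (0.0515 to 0.0742). Cdca3 was also lost on the compared groups alone (0.0793). Cit (-0.21) missed it without 200 mg/kg replicate 1, 2, 3 or 5 or 2000 mg/kg replicate 3, 4 or 5 (0.0541 to 0.17), and Plk4 (0.14), the kinase of centriole copying, without 200 mg/kg replicate 1, 2, 4 or 5 or 2000 mg/kg replicate 1, 4 or 5 (0.0539 to 0.128). With all animals kept, Cit was lost after quantile normalization (0.0886), on the compared groups alone (0.151), with trend and robust moderation (0.0503) and with array quality weights (0.0684). Plk4 was lost with arrays centred on their median (0.0506), on the compared groups alone (0.0677) and with array quality weights (0.0522). Tfdp2 (-0.51) missed the threshold when 2000 mg/kg replicate 2 was left out (0.0643). Hgf (-0.45) missed it without 200 mg/kg replicate 4 or 5 or 2000 mg/kg replicate 2, 3 or 4 (0.0541 to 0.0957) and with a replicate block (0.0576), and Inhbe (0.71) without 200 mg/kg replicate 2 or 3 or 2000 mg/kg replicate 1, 2, 3 or 4 (0.0694 to 0.0993). At day 29 against vehicle, Hells (0.44) was lost without vehicle replicate 1 or 4 or 2000 mg/kg replicate 3, 4 or 5 (0.0519 to 0.12), with a replicate block (0.0535) and after quantile normalization (0.0794). Cks2 (-0.23), a small subunit of cyclin kinases, missed it when 2000 mg/kg replicate 1 or 4 was left out (0.0559 and 0.0583). Cenpm (-0.27) was lost without vehicle replicate 1, 3 or 4 or any 1 of the 5 treated rats (0.0503 to 0.109), and with a replicate block (0.0685). Chek1, the S phase checkpoint kinase, rose by 0.23 ± 0.07 between doses (adjusted p = 0.0354). It was chosen after its value was seen and was not tested without single animals.

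Between the vehicle groups 3 genes of these lists (52, 56, 29 and 21 clusters) were called, against 2.73% of all clusters. Yap1, the effector of Hippo signalling, was higher at day 29 by 0.28 ± 0.06 (SE; limma adjusted p = 0.0153, at most 0.048 without any 1 animal, but 0.081 fitted on the vehicle groups alone). One cluster of Rpa3, a subunit of the single-strand binding protein, was higher by 0.32 and Lin37, a subunit of the DREAM complex, lower, with a difference of -0.26 (adjusted p of 0.0484 each). The Rpa3 call was lost without any 1 of 11 of the 12 vehicle rats, all but day 29 replicate 2 (adjusted p from 0.0544 to 0.114). It was also lost with a replicate block (0.0598), on the vehicle groups alone (0.0509) and on the mean of the gene's clusters (0.0902). The Lin37 call was lost without any 1 day 8 vehicle rat or without day 29 replicate 1, 5 or 6 (adjusted p from 0.0579 to 0.124), after quantile normalization (0.0543) and on the vehicle groups alone (0.147).

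Members were also set beside the letters in their promoters. Of the 25 member clusters with a promoter in the table, 11 came from promoters with the CHR letters, of which 1 (Top2a) fell at day 8 and 1 (Mcm2) rose at day 29, with median differences of -0.02 at both days. The other 14 had medians of -0.0088 and -0.0056. They held the rise of Tyms at day 8, and at day 29 the rises of Tyms and Ccne1 and the fall of Mcm5. The 8 clusters with E2F letters had medians of 0.0051 and -0.02 and held the rise of Tyms at day 8 and, at day 29, the rises of Tyms and Mcm2 and the fall of Mcm5. The 17 without them had medians of -0.02 and 0.0056 and held the fall of Top2a at day 8 and the rise of Ccne1 at day 29. The 17 clusters with CCAAT letters had medians of -0.02 at both days and held the falls of Top2a and Mcm5, and the 8 without had medians of -0.0088 and 0.03 and held the rises of Tyms, Mcm2 and Ccne1. These are descriptions of 300-base windows, and no difference between the sets was tested. Of all clusters 18.6% were called at day 8 and 21.6% at day 29 after 2000 mg/kg. The fall of Rrm2 at day 8 is not among these counts, as its promoter was lacking. The calls of Top2a at day 8 and of Mcm2, Mcm5 and Tyms at day 29 did not hold for every animal left out.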

How the data were processed

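Per the labels' protocols, RNA from each liver was labelled with a whole-transcript kit and put on its own Affymetrix array. The authors deposited log2 values in which each cluster has a median of 0. MAS5 and PLIER are named, without roles, in the submitters' processing notes. The log base, taken as 2, and any offset or scaling between arrays were not stated there. Symbols came from the platform annotation (1 symbol for 15097 clusters, several for 323, none for 11922). limma 3.58.1 (R 4.3.3) fitted 1 linear model with 5 groups to all 27342 clusters, with Benjamini-Hochberg adjustment per comparison. The fit was also run on simulated data with independent normal noise. The only pass condition concerned differences larger than that of any member, so passing does not bear on the sizes reported here. Intervals are 95% and p-values two-sided.

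The members, lists and tests were chosen with earlier results of these data known. Values are given in full for called members, Top2a, Cdk1 and Pcna, and for up to 4 called genes per related list and comparison. Lists carry counts and medians, with no set test. Scan dates and slides were not used. Promoters came from RefSeq (GRCr8). Alternatives covered normalization, centring, filters, samples fitted, moderation, array weights, a replicate block, the threshold and each animal left out. Plots used matplotlib 3.10.9.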

Additional observations from a re-analysis of the deposited data

Results flagged for a closer look

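The test for a stray animal covered 50 groups, over the members given in full, the other Rrm2 cluster and the mean of all members. Of these groups, 2 held a value that stood apart, and chance gives about 1 in 20 groups. Cdk1 was 0.289 in 2000 mg/kg day 8 replicate 6, and the next highest animal of that group was at 0.0224. Top2a was 0.149 in 2000 mg/kg day 8 replicate 2, and the next highest was at -0.0034.

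For Gadd45b the effect of 2000 mg/kg differed between days by test of the difference itself, with a change of -2.16 on the log2 scale from a rise of 1.69 at day 8 to a difference of -0.47 at day 29.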

How the results depend on the processing

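The number of members called moved with the processing. For 2000 mg/kg at day 8 it was 3, and 5 under quantile normalization or array quality weights, which added Ccna2 and the other Rrm2 cluster. It ran from 2 to 5 over the animals left out, with 5 without vehicle day 8 replicate 4. For 2000 mg/kg at day 29 it was 4, and 1 after quantile normalization (Tyms), 1 with only the groups compared (Ccne1) and 0 at a threshold of 0.01. It ran from 2 to 4 over the animals left out, with 2 without vehicle day 29 replicate 3, 4 or 6 or 2000 mg/kg replicate 2 or 4. For 2000 against 200 mg/kg it was 1, and 0 with only the groups compared or at 0.01, with 0 to 1 over the animals left out. Between vehicle groups it was 0, and 1 with only clusters of 1 symbol or with trend and robust moderation (Cdc20 both times) and 2 with array quality weights (Cdc20 and Top2a), with 0 to 1 over the animals left out. For 200 mg/kg and for the change between days it was 0 in limma under every alternative run and for each animal left out. Limiting the test to stored values of 8 or more left Pcna alone, not called in any comparison with or without that limit, so its counts of 0 say nothing of the other members.

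With the replicate number as a block 4 members were called at day 8, 3 at day 29 and 1 between doses. The deviations of same-numbered animals from their group means had correlations from -0.278 to 0.295. These do not settle whether the numbers pair animals, and the main model did not pair them.

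Some differences near 0 changed sign, with no call in any setting. Pcna did so at 200 mg/kg (-0.0074 under quantile normalization, -0.0055 with array weights) and between vehicle groups (0.031 and 0.0037). The rest did so on leaving out animals, over which Pcna ran from -0.035 to 0.0881 at 200 mg/kg, from -0.0628 to 0.0392 between vehicle groups and from -0.014 to 0.102 between doses. Cdk1 ran from -0.071 to 0.0139 at day 8, from -0.0432 to 0.0026 at day 29, from -0.0081 to 0.052 between doses and from -0.0421 to 0.0428 between days, and Top2a from -0.022 to 0.073 at day 29. No other named result changed sign. Other scalings moved the median of all clusters by at most 0.0082.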
